A study of Mus musculus with 16 samples.

Results

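Gene expression was compared between mouse embryonic stem cells (mESCs) without DNA methyltransferases and wild-type mESCs after both had been cultured in 2i. The comparison used the 3 arrays labelled TKO in 2i (TKO-2i) and the 3 labelled J1 wild type in 2i (J1-2i), 6 of the 16 arrays of the series, and every non-control probe. J1 is a wild-type male line. TKO cells were made from J1 and lack Dnmt1, Dnmt3a and Dnmt3b. Both lines had spent 2 weeks in N2B27, a serum-free medium, with the MEK inhibitor PD0325901 at 1 µM, the GSK3 inhibitor CHIR99021 at 3 µM and LIF at 1000 U/ml. Per the study's methods neither culture had feeder cells. A difference between TKO and J1 is also a difference between cell lines, and the sources used here name 1 TKO line. No label says that the arrays of a group came from separate cultures, so p-values measure the spread between these arrays, which may be technical. The other arrays were J1-serum (4), TKO-serum (2), and 3B3l-serum and 3B3l-2i (2 each). Serum cultures had LIF at 500 U/ml, and 3B3l-2i had the same 2i medium. 3B3l cells (3B3-3l in the labels) are Dnmt3a and Dnmt3b knockout cells that express exogenous Dnmt3b and Dnmt3l. All 3B3l arrays lay on a slide and scan day that held none of the 6 arrays. Differences of 3B3l from them cannot be told apart from a difference of slide or scan day.

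Dnmt3a and Dnmt3b set methyl groups on cytosines of CG dinucleotides, Dnmt3l is their cofactor without catalytic activity, and Dnmt1 copies the pattern after replication. Methylation of CG-rich promoters is commonly linked to silencing, and genes of the germ line are the classic group described in this way. In 2i the ERK pathway is blocked and beta-catenin is stabilised, and wild-type mESCs lose part of their own methylation. In this comparison a line with reduced methylation was therefore set against a line without methyltransferases. These arrays did not measure methylation.

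Values are log2 of the fluorescence signal of a probe relative to the 75th percentile of its array, and a difference is TKO-2i minus J1-2i on that log2 scale with its standard error (SE). The brightest probe of a gene is the one with the highest mean over the 16 arrays. A gene was called when at least 1 probe had an adjusted p of at most 0.05 in limma and changed at least 2-fold. Where 1 group was not well above background, the fold is given as a bound ("at least"), measured on each array against the faintest signal that passed the background flag or, where it was higher, the probe's own signal. On the 6 arrays the 75th percentile ran from 1041 to 1476 intensity units, and 42.1% to 46.9% of spots were well above background. All 10 markers of mESCs were detected well above background on the 6 arrays. Of 23 fibroblast markers 7 were so in J1-2i and 11 in TKO-2i. The summed linear level of the 16 tested was 16.6 to 18.8 and 16.4 to 18.2 times the 75th percentile. For 25 trophoblast markers the number was 14 in both groups, and the summed level of the 22 tested was 28.5 to 31.9 and 30.3 to 32.1. For 19 markers of primitive endoderm the number was 6 and 4. The summed level of the 17 tested was 52.7 to 59.5 in J1-2i and 63.9 to 67.4 in TKO-2i.

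TKO-2i replicate 1 stood apart from the other TKO-2i arrays. Its Pearson correlation over tested probes was 0.973 with TKO-2i replicate 2 and 0.969 with replicate 3, and it was 0.965 to 0.973 with the J1-2i arrays. TKO-2i replicates 2 and 3 correlated at 0.990 with each other and at 0.943 to 0.953 with J1-2i. Among probes measured above background on both sides, 399 were at least 4-fold below J1-2i in the mean of TKO-2i replicates 2 and 3. Of these, 326 lay within 0.5 log2 units of J1-2i in replicate 1. Of these 326 probes 216 had no gene name, as had 9277 of all 27126 tested probes, and 16 belonged to olfactory or vomeronasal receptors. In the other direction 45 of 165 probes lay near J1-2i in replicate 1. Among genes called by their brightest probe, replicate 1 alone was at least 2-fold from J1-2i in 402 of 524 that rose (76.7%) and in 364 of 490 that fell (74.3%). These calls were made with replicate 1 included, and it lay within 0.5 log2 units of J1-2i in 49 that rose and 35 that fell. Replicate 1 lay on a different slide from replicates 2 and 3, together with J1-2i replicate 2. What sets it apart was not tested, and counts that moved without it are given below.

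**Figure D1:**
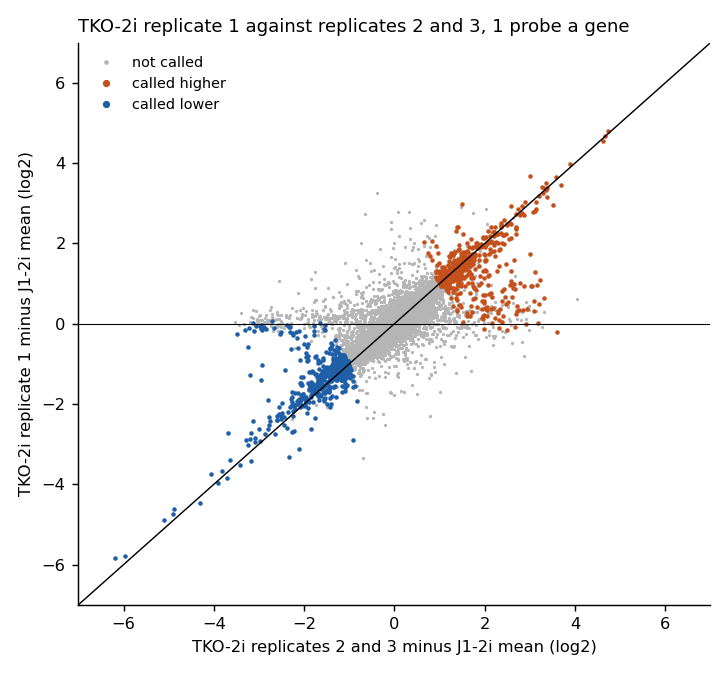
Difference of TKO-2i replicate 1 from the J1-2i mean (vertical axis, log2) against that of TKO-2i replicates 2 and 3 (horizontal axis, log2), 1 probe for each tested gene. Genes on the diagonal differ alike on all TKO-2i arrays, and the band along the horizontal line holds genes that differ on replicates 2 and 3 and lie at the J1-2i level on replicate 1.

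TKO-2i and J1-2i differed in 1180 of 13917 tested genes (8.48%), of which 623 were higher in TKO-2i (4.48%) and 558 lower (4.01%), with Slc44a1 called in both directions by different probes. Among probes measured above background on both sides, 46 genes were at least 4-fold higher and 42 at least 4-fold lower. A further 100 genes were well above background on all TKO-2i arrays and on no J1-2i array, and 146 the other way round. The median absolute difference was 0.26 log2 units, and 74.0% of genes differed by under 0.5. Without TKO-2i replicate 1 the counts were 753 higher and 819 lower, with 92.5% and 97.1% of the original calls among them. Probes without a gene name moved more, from 496 higher and 279 lower to 754 and 661. Among 20630 probes well above background on all 6 arrays, 229 genes were higher and 240 lower with replicate 1, and 255 and 331 without it.

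In serum, where J1 had feeder cells and TKO had none, 1280 genes were higher in TKO (9.2%) and 1370 lower (9.84%), and the median absolute difference was 0.42. Of the 623 genes higher in 2i, 180 were called the same way in serum (28.9% of the 2i list and 14.1% of the serum list) and 63 the opposite way. Of the 558 lower in 2i, 225 were called the same way (40.3% and 16.4%) and 33 the opposite way. The difference between the 2 differences was itself called for 2418 genes (17.4%), among them 298 of the genes higher in 2i and 247 of those lower. The median difference of 16 fibroblast markers was -1.91 in serum and 0.14 in 2i, so for genes of feeder cells the medium and the feeders cannot be told apart.

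The deleted genes were lower on every TKO-2i array than on any J1-2i array. Dnmt1 stood at 2.32, 2.36 and 2.45 in J1-2i and at -1.58, -1.42 and -1.64 in TKO-2i, a difference of -3.93 (SE 0.11, limma adjusted p = 2.84e-10). Dnmt3a was at -0.95, -0.84 and -0.61 in J1-2i and was well above background on no TKO-2i array, at least 5.84-fold lower (adjusted p = 2.31e-09). No array of 1 group reached the level of the other for either gene. Dnmt3b, at a mean of 2.96 in J1-serum, went in 2i from 0.68, 0.56 and 0.65 to -0.69, -0.53 and -0.70 by the probe with the highest mean, 2.41-fold lower (adjusted p = 6.07e-06). Other Dnmt3b probes fell from 0.37, 0.24 and 0.15 to -1.31, -1.51 and -1.94, and from 2.26, 1.93 and 1.94 to 0.35, 0.31 and 0.19. Dnmt3l went the other way, from 0.73, 0.80 and 0.69 in J1-2i to 2.75, 3.01 and 3.06 in TKO-2i, 4.6-fold higher (adjusted p = 3.01e-07). In serum Dnmt3l differed by 0.91 and was not called, and the difference between media was 1.30. Of 21 tested genes for readers, erasers and partners of methylation, 1 rose and 1 fell (4.76% each, near the shares over all genes), with a median of -0.01. Uhrf1, the partner that brings Dnmt1 to replicated DNA, differed by 0.12, Tet1 by 0.01 and Tet2 by -0.48, and none of these was called. Apobec1, a cytidine deaminase, fell by 1.01 log2 units (limma adjusted p = 2.24e-05). Its fall came to under 2-fold without J1-2i replicate 3 (-0.96), TKO-2i replicate 2 (-0.99) or TKO-2i replicate 3 (-0.99). The same held with quantile normalization (-0.990), the normexp background correction (-0.965) and the authors' log2 table (-0.997). Tdg, a glycosylase that removes oxidised methylcytosine, was called higher by 1 of its 3 probes (1.93), while its brightest probe differed by -0.01.

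**Figure D2:**
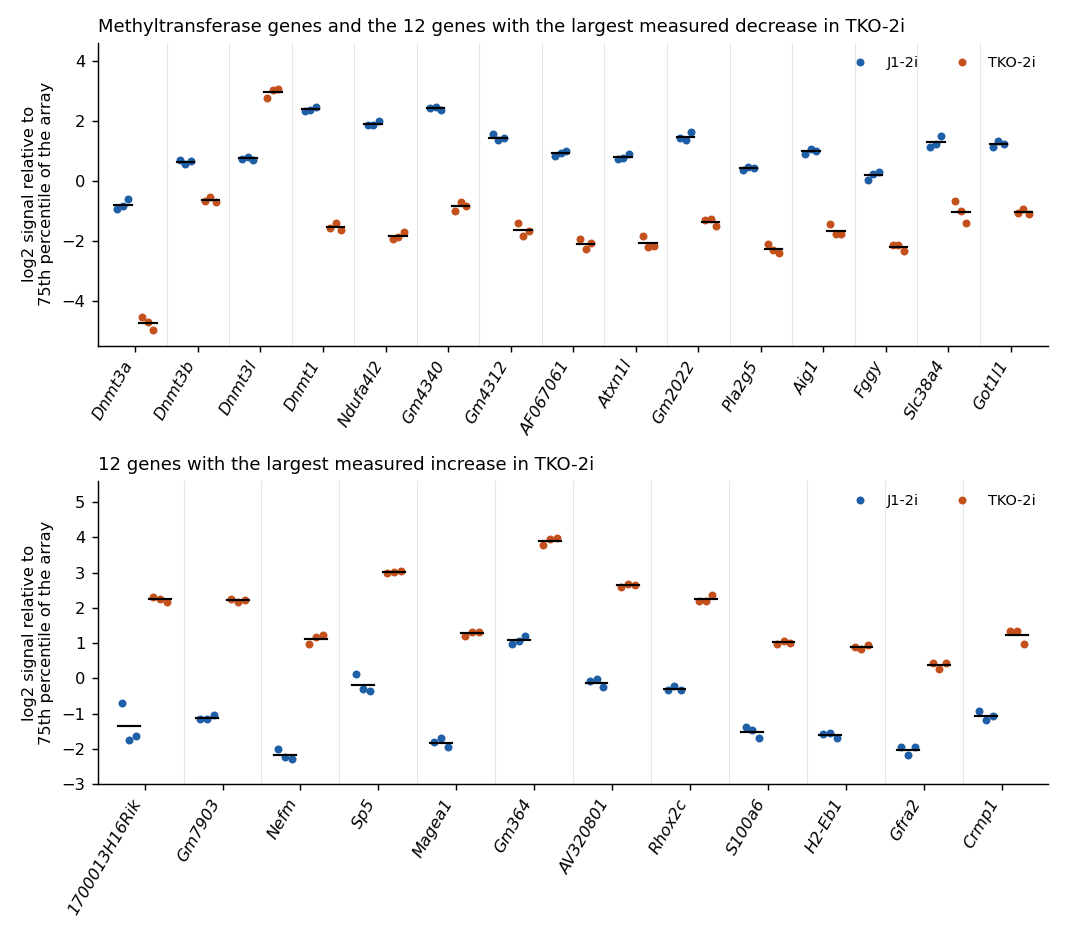
Level of each gene on the 3 J1-2i (blue) and 3 TKO-2i (orange) arrays, as log2 signal relative to the array's 75th percentile, with black bars for group means. The upper panel holds the methyltransferase genes and the 12 genes with the largest measured decrease, the lower panel the 12 with the largest measured increase; in all of them the 2 groups do not overlap.

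Among genes well above background on all 6 arrays, with no saturated value and no overlap of the groups, the 12 with the largest increase were led by X-linked genes and a neurofilament. 1700013H16Rik, on the X chromosome, rose from -0.69, -1.76 and -1.65 to 2.30, 2.24 and 2.18, 12.2-fold (adjusted p = 5.21e-06). Gm7903 rose from -1.15, -1.16 and -1.05 to 2.26, 2.17 and 2.21, 10.1-fold, and Magea1, a melanoma antigen gene, from -1.82, -1.71 and -1.96 to 1.2, 1.31 and 1.31, 8.62-fold (adjusted p = 3.7e-06 and 1.3e-07). Of these 12 genes, 6 lie on the X chromosome, the others of them being Gm364 (2.83), AV320801 (2.76) and Rhox2c (2.55). The 6 remaining genes have varied roles. Nefm encodes the medium neurofilament chain and Crmp1 a protein of axon guidance, and they rose by 3.30 and 2.29. Sp5, a transcription factor induced by Wnt, rose by 3.2. S100a6, a calcium-binding protein, rose by 2.54, H2-Eb1, a class II histocompatibility chain, by 2.49, and Gfra2, a receptor for neurturin, by 2.40. S100a6 was lower in TKO in serum (-1.13) and that difference was called, so it went opposite ways in the 2 media, while Gfra2 was well above background on no serum array of either line.

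Among the genes that fell most, Ndufa4l2, a mitochondrial protein induced by hypoxia, dropped from 1.84, 1.86 and 1.99 to -1.93, -1.89 and -1.71, 13.4-fold (adjusted p = 1.01e-07). Pygl, the liver glycogen phosphorylase, went from 0.02, 0.29 and 0.51 to levels not well above background, at least 12.3-fold lower (adjusted p = 1.26e-09), and at least 17.3-fold lower in serum. Scn3a, a sodium channel subunit, was at 0.49, 0.32 and 0.59 in J1-2i and not well above background in TKO-2i, at least 11.8-fold lower, but TKO-serum exceeded J1-serum by at least 1.83-fold, with 1 of 2 TKO-serum arrays well above background. Pmaip1, which encodes the pro-apoptotic protein Noxa, fell at least 9.4-fold from -0.28, -0.09 and 0.03 (adjusted p = 3.91e-09). It was the 1 called gene among 19 tested p53 targets (5.26%, near the 4.01% of all genes that fell): Cdkn1a (0.25), Mdm2 (0.13) and Bbc3 (0.19) were not called, and the list's median was 0.22. None rose, and 7 were higher at an unadjusted p of at most 0.05. Atxn1l, an ataxin relative, fell by 2.86, Pla2g5, a secreted phospholipase, by 2.70, and Slc38a4, an amino acid transporter, by 2.32. Aig1 fell by 2.65, the carbohydrate kinase Fggy by 2.40 and Got1l1 by 2.27. For Ndufa4l2 and Got1l1 the difference between media was not called, while for Atxn1l, Pla2g5, Slc38a4, Aig1 and Fggy the fall was called larger in 2i than the difference in serum.

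Of 48 listed genes of the X-linked germ-cell clusters (Xlr, Rhox and Mage families, with Usp26, Tktl1 and others) 32 were tested. Of these 19 rose (59.4%, against 4.48% of all genes), 1 fell (3.12%, against 4.01%) and 12 were not called, and the median difference was 1.36, against 0.05 over all genes tested. Magea8 was at -4.41, -4.88 and -5.01 in J1-2i, not well above background, and at 0.05, -0.05 and -0.04 in TKO-2i, at least 10.6-fold higher (adjusted p = 2.66e-06). Magea5 and Magea3 were likewise not well above background in J1-2i and were at least 9.78-fold and 8.26-fold higher (adjusted p = 7.12e-10 and 1.09e-09). In serum, where no J1 array had any of the 3 well above background either, Magea8, Magea5 and Magea3 were at least 8.24-fold, 9.45-fold and 9.13-fold higher in TKO. For Rhox2c the difference was smaller in 2i than in serum, with a difference between media of -2.69, and its mean in J1 was -0.30 in 2i and -2.45 in serum. By its brightest probe Magea1 was well above background on every J1-2i array and on no J1-serum array, and its rise was also called smaller in 2i. Another Magea1 probe was well above background on no J1-2i array and was also called higher in TKO-2i. Rhox5 rose by 2.20, Rhox13 by 1.94, and Tktl1 and Usp26, not well above background in J1-2i, were at least 1.89-fold and 2.07-fold higher. Rhox1 was the member that fell, from -1.88, -1.91 and -1.86 to -2.0, -4.61 and -4.83 (-1.93, adjusted p = 0.0441), with TKO-2i replicate 1 near the J1-2i level. Mageb3, annotated on chromosome 2, was at -4.62, -2.24 and -4.76 in J1-2i and at -0.48, -0.61 and -0.39 in TKO-2i, a difference of 3.38 with 1 J1-2i array well above background. Gm15023, on the X chromosome and outside the list, was at least 8.68-fold higher. Near-identical copies within these families may share signal, so the assignment to single members is uncertain.

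Over the whole X chromosome 63 of 540 tested genes rose (11.7%), against 4.48% of all genes, and 19 fell (3.52%). The median of its genes was 0.06, close to that of all genes. With the members of the list left out, 45 of 509 X-linked genes rose (8.84%). Of the 63 genes, 43 also rose in serum, against 180 of all 623 genes that rose in 2i (28.9%). With the list members left out it was 27 of 45. On the autosomes the share that rose ran from 2.57% on chromosome 8 to 6.63% on chromosome 14, and chromosome 8 had the lowest median (-0.09).

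**Figure D3:**
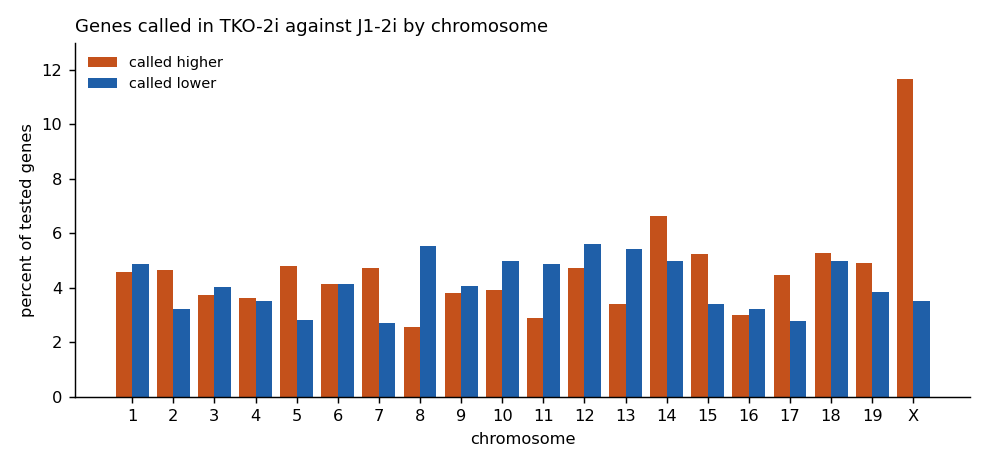
Percent of tested genes called higher (orange) and lower (blue) in TKO-2i against J1-2i on each chromosome. The X chromosome had 11.7% of its tested genes higher, and every autosome had 6.63% or less.

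Germ-line genes outside the X-linked clusters moved both ways in 2i. The promoters of 5 of them are shown as the 250 bases before the gene's start, with CG dinucleotides in capitals since these are the sites of methylation, beside Magea5, which rose with no CG in that window. The sequences are from RefSeq promoters of GRCm38.p6, given in the direction of transcription. Dazl lies at chr17:50293621-50293870 (- strand), Fkbp6 at chr5:135350045-135350294 (- strand), Tdrd5 at chr1:156303349-156303598 (- strand), Tuba3b at chr6:145615713-145615962 (+ strand), Dmc1 at chr15:79605110-79605359 (- strand) and Magea5 at chrX:155061554-155061803 (- strand). Dazl, Tdrd5, Tuba3b and Dmc1 were taken by size of change, and Fkbp6 and Magea5 were chosen after their values were seen.
Dazl: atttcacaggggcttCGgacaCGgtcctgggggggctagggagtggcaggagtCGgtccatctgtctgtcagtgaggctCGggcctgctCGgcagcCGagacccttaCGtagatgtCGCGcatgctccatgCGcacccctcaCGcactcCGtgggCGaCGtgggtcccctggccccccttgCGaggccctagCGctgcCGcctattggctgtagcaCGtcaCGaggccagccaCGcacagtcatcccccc
Fkbp6: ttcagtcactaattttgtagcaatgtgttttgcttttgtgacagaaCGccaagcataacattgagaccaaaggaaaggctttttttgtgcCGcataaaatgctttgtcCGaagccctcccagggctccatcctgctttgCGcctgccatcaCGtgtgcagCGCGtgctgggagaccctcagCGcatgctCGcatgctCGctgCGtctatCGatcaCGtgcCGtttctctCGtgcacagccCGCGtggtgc
Tdrd5: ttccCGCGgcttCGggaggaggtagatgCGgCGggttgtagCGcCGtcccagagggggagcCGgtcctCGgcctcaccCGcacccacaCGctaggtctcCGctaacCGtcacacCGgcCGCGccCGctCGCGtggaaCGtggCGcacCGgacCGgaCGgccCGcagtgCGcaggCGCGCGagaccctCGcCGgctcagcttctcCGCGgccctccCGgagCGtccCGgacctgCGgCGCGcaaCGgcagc
Tuba3b: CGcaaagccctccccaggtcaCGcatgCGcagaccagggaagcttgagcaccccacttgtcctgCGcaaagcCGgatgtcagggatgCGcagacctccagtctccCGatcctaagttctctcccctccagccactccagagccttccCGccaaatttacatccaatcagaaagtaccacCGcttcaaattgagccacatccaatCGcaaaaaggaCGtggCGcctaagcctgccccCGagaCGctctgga
Dmc1: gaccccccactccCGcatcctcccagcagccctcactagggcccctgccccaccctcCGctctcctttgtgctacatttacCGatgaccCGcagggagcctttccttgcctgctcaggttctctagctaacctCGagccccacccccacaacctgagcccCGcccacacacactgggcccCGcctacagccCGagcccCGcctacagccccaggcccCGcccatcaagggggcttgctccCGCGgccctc
Magea5: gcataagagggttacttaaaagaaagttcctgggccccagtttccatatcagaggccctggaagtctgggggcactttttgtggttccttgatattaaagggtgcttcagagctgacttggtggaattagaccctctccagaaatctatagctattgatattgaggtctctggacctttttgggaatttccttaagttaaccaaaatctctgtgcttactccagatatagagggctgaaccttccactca

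These windows held 20 CG in Dazl, 17 in Fkbp6, 40 in Tdrd5, 14 in Tuba3b, 12 in Dmc1 and 0 in Magea5, and of the 2 Fkbp6 promoters listed 1 is shown. CG reads the same on both strands, and 2.33% of the 11096 tested genes with a promoter in the table had none in this window. Among X-linked genes with a promoter in the table, the median was 5 CG for the 59 that rose and 9 for the 467 tested, with observed over expected ratios of 0.374 and 0.537. Over all chromosomes the median was 8 CG for genes that rose and 15 for those tested, but the table covered 79.7% of the tested genes, under the 80% set as the minimum, so that comparison is void.

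Of 22 listed germ-cell and piRNA-pathway genes 15 were tested; 3 rose (20%, against 4.48% of all genes) and 1 fell (6.67%, against 4.01%), with a median of -0.18. Dazl, an RNA-binding protein of germ cells whose promoter with 20 CG is shown above, rose from 2.53, 2.39 and 2.88 to 3.87, 3.82 and 3.99, 2.44-fold (adjusted p = 0.00051). Fkbp6, a chaperone partner of the piRNA pathway, rose from 2.08, 2.15 and 2.02 to 3.22, 3.29 and 3.52, 2.39-fold (adjusted p = 3.99e-05). Both rose more in serum, by 2.33 and 2.86, and the differences between media (-1.04 and -1.60) were called. J1 cells had a mean level of 0.42 for Dazl and -0.34 for Fkbp6 in serum and of 2.60 and 2.09 in 2i, whereas TKO cells had 2.74 and 2.52 in serum and 3.89 and 3.34 in 2i. Asz1, a protein of germ-cell granules, was not well above background in J1-2i and at -2.12, -2.05 and -1.85 in TKO-2i, at least 2.11-fold higher, and at least 14.4-fold higher in TKO in serum. The call for Asz1 was lost without J1-2i replicate 1 (1.00) and with the normexp background correction (0.76). Tdrd5 moved the other way, from -2.95, -3.09 and -2.91 to -4.70, -4.78 and -4.68, on levels not well above background in either group, so no fold is given, and its call was lost with normexp (-0.97). Ddx4 differed by -0.53 and Mael by -0.69, and neither was called, nor was Piwil2, which was not well above background in either group.

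Of 33 listed meiosis genes 28 were tested; 2 rose (7.14%) and 4 fell (14.3%), against 4.48% and 4.01% of all genes, with a median of -0.05. Tuba3b, a testis tubulin, rose from 1.59, 1.53 and 1.51 to 2.99, 3.00 and 3.11, 2.82-fold (adjusted p = 7.39e-05). Sycp3, a component of the synaptonemal complex, fell from 0.85, 1.06 and 1.11 to -0.21, -0.22 and -0.37, 2.42-fold (adjusted p = 6.26e-05). Dmc1, the meiotic recombinase, went from -1.54, -1.35 and -1.2 to levels not well above background, at least 3.28-fold lower (adjusted p = 6.12e-05). Tex11 and Stag3, a meiotic cohesin subunit, fell by 1.15 and 1.01. Tex101 was called higher (1.17) on levels not well above background in either group. Its difference came to 0.93 without TKO-2i replicate 2 and to 0.88 with normexp.

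Apart from the methyltransferases, the list with the lowest median of the 20 was that of the 2-cell-like program, a set of transcripts of the 2-cell embryo that a minor fraction of mESCs expresses at any time. Of 39 listed genes 29 were on the array and 19 were tested; 15 fell (78.9%, against 4.01% of all genes) and none rose, with a median of -1.91. At an unadjusted p of at most 0.05, 1 was higher, and 1 by an ordinary t-test on the 6 arrays. Zscan4f, a member of the family that marks this state, stood at 1.93, 1.82 and 2.04 in J1-2i and was well above background on no TKO-2i array, at least 38.9-fold lower (limma adjusted p = 6.38e-11). Zscan4b was at 1.12, 1.17 and 1.26 in J1-2i and at least 23.1-fold lower in TKO-2i (adjusted p = 1.46e-11). No TKO-2i array came near the J1-2i levels, replicate 1 included. Gm8300 and Gm20767 were at least 11.9-fold and 10-fold lower, again with no TKO-2i array well above background, as was Gm21319 (at least 11.3-fold), which is outside the list. Gm4340 fell from 2.41, 2.46 and 2.37 to -1.01, -0.70 and -0.83, 9.58-fold, and AF067061 from 0.82, 0.93 and 1.00 to -1.94, -2.29 and -2.08, 8.08-fold. Gm2022 fell by 2.82 and Gm4312, outside the list, by 3.09. Tcstv3 was at least 2.2-fold lower, and Tcstv1 was called lower on levels not well above background in either group. Many of these genes are near-identical copies, so they are not separate pieces of evidence. In these bulk samples fewer cells in the state and less RNA per cell cannot be told apart.

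For Zscan4f, Zscan4b, Gm4340, AF067061, Gm2022, Gm8300 and Gm20767 the fall was called larger in 2i than in serum, by the test of the difference between media. Zscan4f was at 4.04 in J1-serum and 3.46 in TKO-serum on average, and its difference of -0.59 there was not called. With TKO-2i held at its bound, the fall in 2i exceeded that in serum by at least 4.69 log2 units. Zscan4b differed by -0.48 in serum, and its fall in 2i was larger by at least 4.05. The median of the list was -0.43 in serum. 3B3l-2i arrays, on another slide and scan day, had Zscan4f at 3.80 and 4.15, above both J1-2i and TKO-2i. Gm8300 and Gm2022 were also lower in TKO in serum, by 1.38 and 1.23, with a larger fall in 2i.

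**Figure D4:**
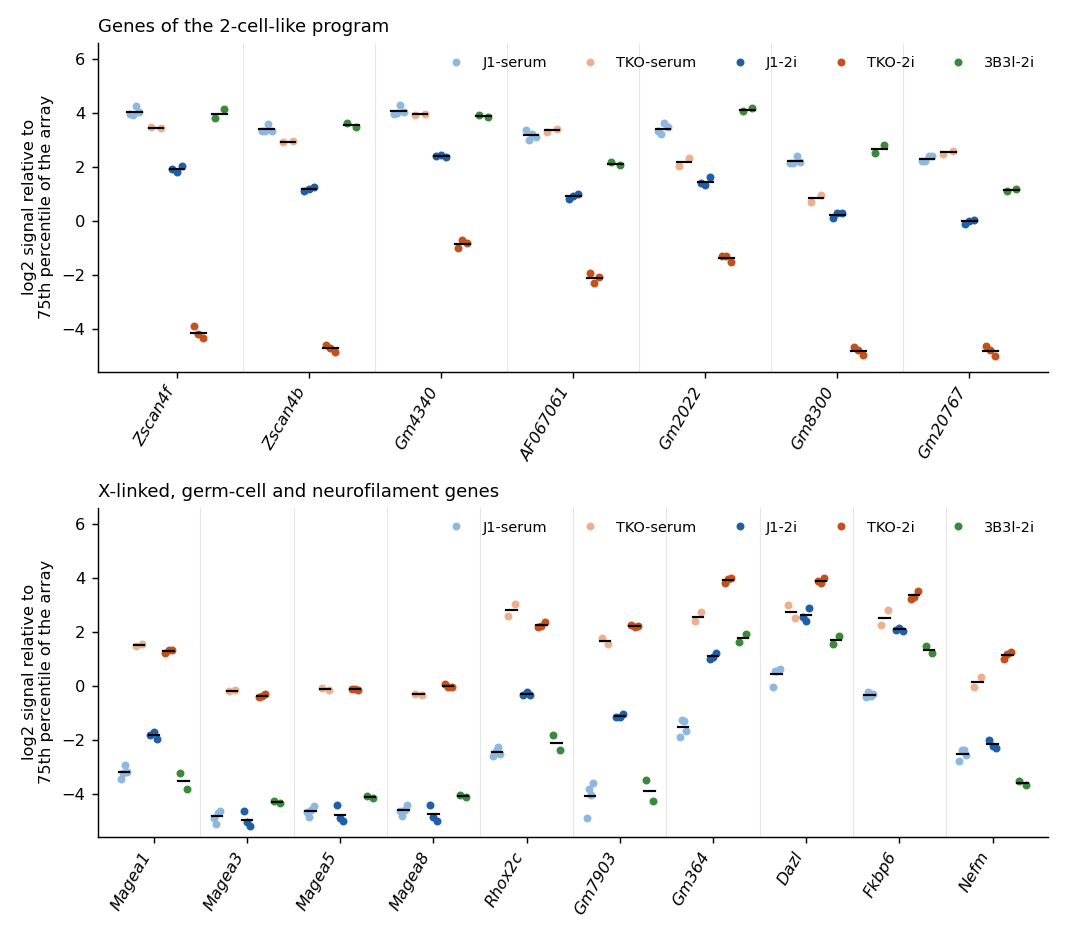
Level on each array, as log2 signal relative to the array's 75th percentile, in J1-serum, TKO-serum, J1-2i, TKO-2i and 3B3l-2i, with black bars for group means. In the upper panel the 2-cell-like genes were lowest in TKO-2i, and in the lower panel the Mage genes were higher in TKO than in J1 in both media.

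Of 28 tested genes of the naive pluripotency network 3 rose (10.7%, against 4.48% of all genes) and none fell (4 were lower at an unadjusted p of at most 0.05), with a median of 0.03. Pou5f1 (Oct4) was at 6.0, 5.93 and 5.58 in J1-2i and at 5.99, 6.03 and 6.02 in TKO-2i, and Nanog at 5.85, 5.50 and 5.35 and at 5.68, 5.83 and 5.73. Their differences of 0.18 each (SE 0.16, adjusted p = 0.457 and 0.469) were within the overlap of the arrays. Both probes were saturated on some arrays, which compresses any difference, and with quantile normalization that of Nanog turned to -0.032. A second Nanog probe differed by -0.08 and was not called. Zfp42 was saturated on all TKO-2i arrays and Dppa5a on all 6, so their difference is not measured here. Esrrb (0.13), Klf2 (0.01), Klf4 (-0.19), Tfcp2l1 (0.11) and Tbx3 (-0.19) were not called. Gbx2, a homeobox gene that sustains self-renewal, rose from -0.51, -0.80 and -0.67 to 1.27, 1.37 and 1.14, 3.79-fold (adjusted p = 2.53e-06). Pramel6 rose by 1.05 (adjusted p = 0.0221) and lost its call without any 1 of the J1-2i arrays or without TKO-2i replicate 2 (0.83 to 1.07, adjusted p 0.056 to 0.102), and came to under 2-fold with scaling by the array median (0.96), quantile normalization (0.98), the log2 table (0.98) and normexp (0.80). Sall4 was called by 1 of its dimmer probes (1.24), and its brightest probe differed by 0.36.

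Genes of the formative and primed states moved both ways. Of 21 tested genes 5 rose (23.8%) and 3 fell (14.3%), against 4.48% and 4.01% of all genes, with a median of -0.04. Otx2, a driver of the exit from the naive state, fell from 3.63, 3.63 and 3.69 to 1.85, 1.72 and 2.18, 3.33-fold (adjusted p = 4.08e-07), though it differed by 0.22 in serum and was not called there. Eomes, a T-box factor, fell from 0.42, 0.52 and 0.75 to -1.11, -1.21 and -0.68, 2.95-fold (adjusted p = 0.000102), and Lefty1, an inhibitor of Nodal, by 1.13. Pou3f1 (Oct6) rose from -2.20, -1.96 and -2.21 to -0.99, -0.43 and -0.42, 2.85-fold (adjusted p = 9.98e-05). Lin28a, an inhibitor of let-7 processing, rose by 1.27, Sox3 by 1.08, and Cdh2 (N-cadherin) by 1.11 with its dimmer probe. Fgf5, the usual marker of primed cells, was not well above background in either group and was not called.

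Both cultures had the same GSK3 inhibitor, which activates targets of Wnt and beta-catenin. Of 12 tested Wnt targets 7 rose in TKO-2i (58.3%, against 4.48% of all genes) and none fell, also at an unadjusted p of at most 0.05, with a median of 1.19, against -0.33 in serum. Sp5 went from 0.11, -0.30 and -0.35 to 2.99, 3.01 and 3.06, 9.18-fold (adjusted p = 6.29e-08). Cdx2, a caudal homeobox gene that also specifies trophectoderm, was not well above background in J1-2i and at -2.15, -1.95 and -1.79 in TKO-2i, at least 2.74-fold higher (adjusted p = 6.58e-08). Cdx1 rose from 1.34, 1.19 and 1.36 to 2.85, 2.57 and 2.44, 2.51-fold (adjusted p = 0.000625). For Sp5 and Cdx1 the rise was called larger than the difference in serum, where Cdx2 was well above background on 1 of 4 J1 arrays and on no TKO array. T (brachyury) rose at least 2.18-fold, with 1 of 3 TKO-2i arrays well above background. Dkk1, a secreted inhibitor of the pathway, Lef1, a partner of beta-catenin, and Nkd1, a feedback inhibitor, were called higher on levels not well above background in either group, so no fold is given. Some members were not called. Notum, an extracellular inhibitor, differed by 0.22, Tcf7 by 0.21 and Sfrp1 by -0.07, and their groups overlapped. Axin2, a feedback inhibitor, differed by 1.06 and was not called. The 3B3l-2i arrays, on another slide and scan day, had Sp5 at 2.88 and 3.21 and Cdx2 at 0.06 and -0.17. T was at -0.45 and -0.23 there. These levels were near or above those of TKO-2i.

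Of 19 tested targets of the ERK pathway, which PD0325901 blocks, 4 rose (21.1%) and 2 fell (10.5%), against 4.48% and 4.01% of all genes, with a median of 0.10. By the ordinary t-test 4 rose and none fell. Etv4, an ETS factor induced by FGF signalling, rose from 1.60, 1.49 and 1.56 to 3.75, 3.80 and 3.54, 4.42-fold (adjusted p = 2.48e-07). Its relative Etv5 was at 5.36, 5.20 and 5.13 in J1-2i and at 5.44, 5.49 and 5.55 in TKO-2i, a difference of 0.27 that was not called (adjusted p = 0.0606). Myc rose from -2.08, -2.47 and -2.33 to -0.83, -0.71 and -0.70, 2.92-fold (adjusted p = 4.17e-05). Spry4, a feedback inhibitor, was at least 1.73-fold higher, with 1 TKO-2i array well above background, and Etv1 rose by 1.04. The immediate early genes did not go with them. Fos was at least 1.78-fold lower, and Egr1 fell from -1.03, -0.85 and -1.47 to -1.71, -1.82 and -3.21 (-1.13, adjusted p = 0.0324), a call lost without J1-2i replicate 1 (-1.08), J1-2i replicate 2 (-1.0) or TKO-2i replicate 3 (-0.65), with normexp (-0.77), with no filter on dim probes (adjusted p = 0.0585) and with the 6 arrays alone (adjusted p = 0.11). Spry2 (-0.75), Dusp6 (0.49), Ier2 (-0.26) and Ccnd1 (0.40) were not called.

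Of 23 tested neural genes 8 rose (34.8%, against 4.48% of all genes) and 1 fell (4.35%, against 4.01%), with a median of 0.19. Besides Nefm, which went from -2.0, -2.23 and -2.30 to 0.98, 1.16 and 1.24, the other neurofilament chains rose, Nefh 2.73-fold (adjusted p = 8.06e-05) and Nefl by 1.21. Nefh stood at 0.90, 0.52 and 0.90 in J1-2i and at 2.18, 2.40 and 2.07 in TKO-2i, and both Nefm and Nefh also rose in serum (2.68 and 2.41). Elavl3, a neuronal RNA-binding protein, was not well above background in J1-2i and was at least 2.4-fold higher, a call lost with the normexp correction (0.90). Tubb3 and Stmn3 rose by 1.26 and 1.41, Stmn2 fell by 1.18, and Pax6 was called higher on levels not well above background in either group. Nes and Sox1, markers of neural progenitors, were not called, at -0.47 and -0.22.

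Of 18 tested Hox genes, which Polycomb complexes keep silent in mESCs, 4 rose (22.2%) and 1 fell (5.56%), against 4.48% and 4.01% of all genes, with a median of 0.57. Hoxd9 rose from -2.09, -1.81 and -2.02 to -0.15, -0.24 and -0.47, 3.22-fold (adjusted p = 2.22e-05), and Hoxd8 from -2.06, -1.95 and -1.86 to -0.44, -0.60 and -0.64, 2.63-fold (adjusted p = 0.00101). Hoxd4 rose by 1.27 and Hoxc6 by 1.38, while Hoxb4 fell at least 2.29-fold, a call lost with the normexp correction (-0.79). In serum no array of either line had Hoxd9, Hoxd8 or Hoxc6 well above background. Among 37 tested subunits of Polycomb complexes and factors of H3K9 methylation none was called by limma or by the ordinary t-test. The median was 0.09. At an unadjusted p of at most 0.05 in limma, 9 were higher and 4 lower. Ezh2 differed by 0.05, Eed by 0.06, Setdb1 by 0.42 and Phf19 by -1.39. Without TKO-2i replicate 1 the counts on that list were 1 higher and 1 lower.

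Imprinted genes are expressed from 1 parental copy, and differential methylation between the copies, on either of them according to the domain, sets which is expressed. Of 24 tested genes expressed from the paternal copy 5 rose (20.8%) and 1 fell (4.17%), against 4.48% and 4.01% of all genes, with a median of 0.53. Mest, a hydrolase, rose from 1.42, 1.30 and 1.23 to 2.90, 3.25 and 3.38, 3.63-fold (adjusted p = 9.2e-07), and it rose by 1.77 in serum. Peg13, a non-coding RNA, was not well above background in J1-2i and was at least 2.7-fold higher, a call lost with the normexp correction (0.86). Inpp5f was at least 2.17-fold higher, and Nnat was called higher on levels not well above background in either group, with a dim second probe at -0.59. Plagl1 was called by a dimmer probe (1.51), and its brightest probe differed by 0.51. Sgce, epsilon-sarcoglycan, fell from -1.04, -0.80 and -0.66 to levels not well above background, at least 3.95-fold (adjusted p = 8.27e-06). Peg3 (0.55), Snrpn (0.62) and Peg10 (0.68) were not called, nor was Igf2, which was not well above background in either group.

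Of 15 tested genes expressed from the maternal copy 2 rose and 2 fell (13.3% each, against 4.48% and 4.01% of all genes), with a median of -0.08. Mirg, a microRNA host transcript of the Dlk1-Meg3 domain, rose from 1.14, 1.28 and 0.86 to 3.12, 3.23 and 3.19, 4.25-fold (adjusted p = 2.66e-06). Its neighbour Meg3 rose by 1.67 and 1.25 with dimmer probes and differed by 0.82 with the brightest, and Dlk1, expressed from the paternal copy of that domain, was not called and not well above background in TKO-2i. Ppp1r9a fell from -0.10, 0.06 and 0.31 to -1.78, -2.12 and -2.27, 4.42-fold (adjusted p = 1.75e-05), with a dim second probe at -0.33. Slc22a18, a transporter, fell from 0.75, 0.66 and 0.71 to -1.0, -0.77 and -0.92, 3.04-fold (adjusted p = 1.36e-05), and by a like amount in serum (-1.87).

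Of 25 tested genes of the hypoxia response 11 fell (44.0%, against 4.01% of all genes) and none rose (1 was higher at an unadjusted p of at most 0.05), with a median of -0.80 in 2i and -1.03 in serum. Beside Ndufa4l2, Egln3, a prolyl hydroxylase that acts on the hypoxia-inducible factor, went from -0.62, -0.28 and -0.14 to levels not well above background, at least 6.4-fold lower (adjusted p = 4.21e-08). P4ha1, a collagen prolyl hydroxylase, fell from -1.22, -1.07 and -0.92 to -2.23, -2.77 and -2.38, 2.62-fold (adjusted p = 0.00108). Adm, adrenomedullin, was at least 1.32-fold lower, with 2 of 3 J1-2i arrays well above background. Pdk1 fell by 1.29, Egln1 by 1.29, Aldoc by 1.17 and Vegfa by 1.04. The glycolytic enzymes Ldha, Pgk1, Eno1 and Aldoa were not called, but each was saturated on all arrays of at least 1 group, so their difference is not measured here.

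Of 21 tested genes of the amino acid stress response 4 fell (19%, against 4.01% of all genes) and none rose, also at an unadjusted p of at most 0.05, with a median of -0.39. Chac1, which degrades glutathione, fell from 4.64, 4.54 and 4.58 to 3.33, 3.19 and 2.91, 2.72-fold (adjusted p = 5.12e-05). Stc2, stanniocalcin, fell from 0.55, 0.70 and 0.79 to -1.04, -1.06 and -1.05, 3.32-fold (adjusted p = 2.4e-07). Both were higher in TKO in serum (1.63 and 1.46), and the differences between media of -3.08 and -3.19 were called. Vldlr, a lipoprotein receptor, fell 4.08-fold in 2i (adjusted p = 3.72e-05) and by 1.55 in serum. Ddit3 (CHOP) fell by 1.03 and came to -0.95 without TKO-2i replicate 2. Atf4 (-0.25) and Asns (0.08) were not called.

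In a pair of other lists no gene was called in either direction by limma or by the ordinary t-test. Of 29 tested interferon-response genes 10 were higher and 3 lower at an unadjusted p of at most 0.05, with a median of 0.12, and Isg15 differed by 0.54, Oas2 by 0.69 and Ifitm3 by -0.65. Of 25 genes of cholesterol and fatty acid synthesis the numbers were 3 and 3, and Scd1 differed by -0.59, with a list median of -0.03.

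**Figure D5:**
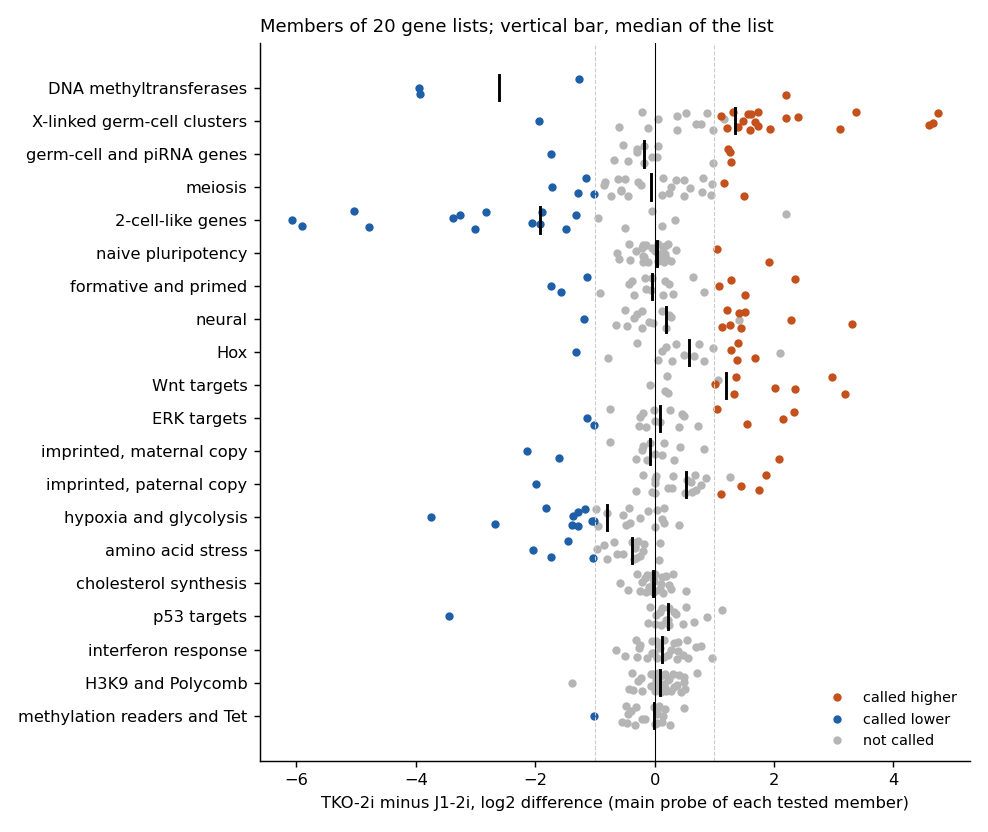
TKO-2i minus J1-2i log2 difference of the brightest probe of each tested member of 20 gene lists, with called members in orange (higher) and blue (lower), other members in grey, list medians as vertical bars and dashed lines at a 2-fold difference. The X-linked clusters and the Wnt targets lie to the right, and the 2-cell-like and hypoxia lists to the left.

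Cdc42ep1 and Lcn5 were well above background on TKO-2i arrays and on no J1-2i array. Cdc42ep1, an effector of the GTPase Cdc42, was at -4.35, -4.31 and -4.22 in J1-2i and at -0.32, -0.61 and -0.19 in TKO-2i, at least 8.25-fold higher (adjusted p = 4.51e-09). In serum both lines had it at like levels (0.11), and the 3B3l-2i arrays, on another slide and scan day, were at -3.40 and -3.25. Lcn5, a lipocalin, was at least 8.99-fold higher, but it had no usable value on TKO-2i replicate 1. Its limma adjusted p of 0.0461 rose to between 0.0764 and 0.221 when any 1 of the other 5 arrays was left out. It was also above 0.05 with quantile normalization (0.0551), the log2 table (0.0723) and no filter on dim probes (0.0769). A slide block gave 0.0594 and a replicate block 0.124.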

How the data were processed

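RNA of 16 mESC samples was hybridised to Agilent 8x60K mouse arrays in 1 colour (Cy3), 1 array a sample. Groups were taken from the sample titles. Per the labels and file headers, images were read with Agilent Feature Extraction 11.5.1.1. In the deposited scanner files the processed signal is an intensity after background subtraction and detrending, with no scaling between arrays, and the mean and background signals as intensities too. A further file deposited by the authors holds log2 values normalized between arrays, in which 13 of 16 columns matched another replicate of the same group best; it served as an alternative.

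Values used here were log2 of the deposited processed intensity minus the array's own 75th percentile over non-control spots, both in log2. Outlier spots were left out, saturated spots kept, and spots of a probe averaged. Probes were taken as well above background where 50% or more of their spots had the flag, and a probe was tested when this held on every array of at least 1 group. This left 27126 of 55681 probes, 9277 of them without a gene name, and 13917 genes. Of the tested probes 318 lacked a value on 1 of the 6 arrays. Gene names came from RefSeq accessions matched to GRCm38.p6, with names for 28026 probes and 21154 genes. The array grid was made on mm9, and no probe coordinates are given.

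All 16 arrays were fitted as 6 group means with limma 3.58.1 in R 4.3.3 (lmFit and eBayes), with two-sided p-values adjusted by the Benjamini-Hochberg method over tested probes. Scripts were tested on simulated data. Adjusted p-values in the text are from that fit unless another is named. Lists used the probe with the highest mean for values and any probe for calls. Bounds for dim groups are means of normalized log2 values against, per array, the higher of the faintest signal that passed the flag and the probe's own. Precision is limited by the number of arrays. The genes named were the methyltransferase genes, the 12 with the largest difference each way among genes well above background on all 6 arrays, not saturated and with no overlap, the 6 with the largest bound each way, and up to 4 called members of each list with, for naive, ERK and Wnt genes, up to 4 of the brightest; other list members were named after their values were seen. The members and lists were chosen with earlier results of these data known. The main fit did not pair the samples by replicate number. Alternatives were scaling by the median, quantile normalization, normexp, the log2 table and filters on dim probes. Further fits used the 6 arrays alone or slide and replicate blocks, or left out each array in turn. An ordinary t-test (unmoderated, with equal variance) was run on the 6 arrays.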

Additional observations from a re-analysis of the deposited data

Results flagged for a closer look

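For 56 of the 94 named genes the TKO minus J1 difference in 2i differed from that in serum (limma, adjusted p of at most 0.05 and at least 2-fold), given here as the difference in 2i minus the difference in serum on the log2 scale. For 30 of them each of the 4 groups had an array well above background. Of these, among genes higher in TKO-2i the value was positive for Dnmt3l (1.30), 1700013H16Rik (1.75), Sp5 (1.70), S100a6 (3.67), H2-Eb1 (1.11), Crmp1 (1.53), Etv4 (1.78) and Cdx1 (1.80) and negative for Gm364 (-1.27), Rhox2c (-2.69), Dazl (-1.04) and Fkbp6 (-1.60). Among genes lower in TKO-2i it was negative for Gm4340 (-3.13), Gm4312 (-3.14), AF067061 (-3.20), Atxn1l (-1.90), Gm2022 (-1.59), Pla2g5 (-1.87), Aig1 (-2.33), Fggy (-2.26), Slc38a4 (-2.25), Otx2 (-1.96), Eomes (-1.10), Ppp1r9a (-1.67), Egr1 (-1.76), Stc2 (-3.19) and Chac1 (-3.08), and positive for Dnmt3b (2.04), Sycp3 (1.07) and Ddit3 (1.87), which fell more in serum than in 2i. In the other 26 a group had no array well above background, so the fitted value rests in part on signal at background and its size is not a measured one. For 13 of these a bound can be given, with each such array set to the higher of the faintest signal that passed the background flag and the probe's own signal. The fitted value is followed by that bound, which equals it where the probe's own signal was the higher: Gm7903 (-2.42, -1.70), Magea1 (-1.61, -1.45), Cdc42ep1 (3.81, 2.93), Zscan4f (-5.48, -4.69), Zscan4b (-5.43, -4.05), Gm8300 (-3.66, -2.20), Scn3a (-5.19, -4.43), Gm21319 (-3.86, -2.51), Gm20767 (-5.03, -3.56), Elavl3 (1.66, 1.42), Cdx2 (4.92, 2.25), P4ha1 (2.29, 2.29) and Pmaip1 (-1.84, -1.63). In the remaining 13 the groups at background leave the value open in both directions, so it shows no larger change in either medium: Dnmt3a (1.67), Gfra2 (3.58), Gm15023 (-1.05), Tdrd5 (-1.45), Asz1 (-3.93), T (2.68), Nnat (1.64), Dkk1 (3.76), Adm (1.80), Hoxd9 (1.42), Hoxd8 (2.17), Hoxc6 (3.24) and Hoxb4 (1.26). J1-serum alone had feeder cells, so the medium and the feeders cannot be told apart in these values.

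On the 4 J1-serum arrays, the one group of more than 3, 1 array lay far from the others in 7 of 93 named genes by the gap to its nearest neighbour over the group's range (Dixon's critical value at 95%). Chance gives about 1 in 20. The gap over the range was 1700013H16Rik 0.891, Zscan4b 0.944, Gm8300 0.832, Gm21319 0.877, Apobec1 0.834, Dazl 0.902, Tcf7 0.904. These arrays enter the comparison in 2i through the shared variance, the choice of tested probes and the choice of each gene's brightest probe. For Dazl, 1700013H16Rik and Apobec1 the far array was J1-serum replicate 1. It stood at -0.06, -1.46 and 1.53, against 0.55 to 0.62, -0.73 to -0.64 and 1.72 to 1.75 on the others. No other J1-serum array was on its slide or scan day, and 2.2% of its spots were outliers, against 0.46% to 0.94%.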

How the results depend on the processing

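The count of called genes (1180) moved by over 1.5 times with the treatment of dim probes and with the fold limit. With normexp it was 707 (370 higher, 337 lower), and with probes well above background on all 6 arrays alone 469 (229 and 240), where the serum comparison gave 1718 and the difference between media 1522. With no fold limit the counts were 4109 (2068 and 2056), 6954 and 4700. Other settings kept the 2i counts within 1.5 times: 1196 with scaling by the array median (513 and 683, a shift of the median of all probes from 0.08 to -0.01), 1128 with quantile normalization, 1014 with the log2 table, 1325 with no filter, 1020 with the 6 arrays alone, 1285 with a slide block, and 904 with the methods' t-test (433 and 472). Leaving out 1 array of the 6 in turn gave 482 to 753 higher, 485 to 819 lower and 972 to 1564 in all, with the highest counts without TKO-2i replicate 1. That replicate also moved the list of Polycomb and H3K9 genes from 0 and 0 to 1 higher and 1 lower, and the counts of none of the other 19 gene lists by over 1.5 times; the primitive endoderm markers went from 0 and 0 to 1 and 2, and the olfactory and vomeronasal receptors from 10 and 5 to 21 and 20. Deviations of same-numbered arrays correlated at 0.04, 0.01 and 0.01, and the main fit did not pair them. With so few arrays a group, this cannot show whether same-numbered samples were handled together. With the replicate number as a block 1134 genes were called (575 higher, 560 lower).

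Of the 94 named genes, 84 of them called, 81 kept direction and call under every alternative limma fit that gave them a value. With probes well above background on all 6 arrays alone, 60 had a value, and some had none in the log2 table. The fit without a fold limit and the ordinary t-test were not used here. Reversed signs were seen for Dppa5a, saturated on all 6 arrays, with quantile normalization (-0.013), the log2 table (-0.013) and without J1-2i replicate 3 (-0.0054, the lowest of its values with 1 array left out, of which 0.246 was the highest), and for Nanog with quantile normalization (-0.032) and the log2 table (-0.032), none of which had been called. The 11 others that lost a call under some setting were Pramel6, Lcn5, Apobec1, Tdrd5, Asz1, Tex101, Elavl3, Peg13, Egr1, Hoxb4 and Ddit3, 9 of them with normexp. Within slides, where there is no test, 186 of 187 values had the reported direction, the exception being Sfrp1 in slide 2 (0.10), and 38 of 93 values within slide 2, which holds TKO-2i replicate 1, moved by more than the spread between replicates. Signal over background limits the dim genes, and saturation the brightest.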

Other observations

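Some markers of other cell types moved singly, although neither culture had feeder cells. Of the fibroblast markers Thy1 was called higher in TKO-2i by its brightest probe (1.77), Col1a1 was at least 3.49-fold higher and Dcn at least 1.4-fold lower, while Col1a2 (0.43), Col3a1 (0.15) and Pdgfrb (-0.34) were not called. Of the trophoblast markers Krt7, a keratin of simple epithelia, was at least 3.87-fold lower and Prl3d1, a placental lactogen, at least 2.37-fold higher, while Tfap2c (-0.60) was not called, nor were Gata3 and Hand1, not well above background in either group. Of the primitive endoderm markers Gata4, Gata6 and Sox17 were not called, and each was not well above background in 1 of the groups. None of 17 tested primitive endoderm markers was called by limma or by the ordinary t-test. At an unadjusted p of at most 0.05 in limma, 5 were higher and 3 lower. Without TKO-2i replicate 1 the calls were 1 higher and 2 lower, and among 22 trophoblast markers they went from 2 and 2 to 3 and 3.

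Of 202 tested genes of olfactory and vomeronasal receptors, a list added after the data were seen, 10 rose (4.95%) and 5 fell (2.48%), near the 4.48% and 4.01% of all genes. Without TKO-2i replicate 1 the counts were 21 and 20.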
